A study of Homo sapiens with 6 samples.

Results

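The transcription factor p53 accumulates when DNA is damaged or the cell is otherwise stressed, and binds short paired sites near genes that stop the cell cycle, repair DNA or start cell death. Among its targets is MDM2, the ubiquitin ligase that returns p53 to a low level, so a p53 response is self-limiting. HepG2 is a human hepatoma cell line. The set described here is 10 classical p53 targets, chosen by name and found on the array by the gene name of each probe: CDKN1A, MDM2, BBC3, BAX, TP53I3, SESN1, FAS, TNFRSF10B, RRM2B and GADD45A. They were represented by 18 of the 41000 probes, and 10 of 17515 named genes. All 10 genes had a probe that was kept, and 9 had their brightest probe well above background on all 6 arrays; MDM2 was above it on 5.

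RNA was measured on 6 one-colour Agilent arrays, each of 1 sample of HepG2 cells. One array carried control cells, for which the labels give neither time nor vehicle and which were placed at 0 h by assumption. The other 5 carried cells exposed to ESB, the study's Scutellaria baicalensis preparation, at 100 µg/ml for 1, 3, 6, 12 or 24 h. The comparison asks how the targets' RNA changes with the time of exposure. With 1 array a group there is no spread between replicates and no p-value at a single time. All levels below are log2 signal minus the log2 75th percentile of the same array, and differences are treated minus control on that scale. The error beside a difference is an SD that comes from how far 2 probes for 1 gene disagree. It was taken over genes with at least 2 measured probes, by the 2 brightest, and pooled over bright and dim signals. In time order these genes numbered 4728, 4684, 2996, 4264 and 4667, and the SD was 0.37, 0.47, 0.79, 0.69 and 0.70. It covers probes, and leaves out variation between cultures and labellings.

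Brightness varied widely. The upper quartile (75th percentile) of signal lay between 139 units on the 6 h array and 1700 on the 3 h array, a 12.2-fold range. The 12 hepatocyte and hepatoma markers were above background on every array, 3 to 9 of them saturated, and their summed signal was 391081 to 694140 units. Of 7 haematopoietic markers 2 to 6 were above background, of 7 fibroblast markers 1 to 4 and of 5 endothelial markers 1 or 2. CD79A, LYZ, ACTA2 and VWF were above it on all 6 arrays, at up to 5060, 7160, 11000 and 304 units. CD3E, CD14, ITGAM and PDGFRB were above it on 5. HBB, COL1A1, COL3A1, LUM, CDH5, KDR and TEK were below it on all arrays. The summed raw signals of these lists ran from 566 to 12742, from 969 to 11355 and from 71 to 356 units. Each was lowest on the 6 h array, the dimmest. Divided by the 75th percentile of each array, the haematopoietic sum was lowest at 12 h (3.37) and the fibroblast sum at 3 h (5.36). The endothelial sum was then lowest at 3 h (0.21) and highest at 6 h (0.51). The part of these lists in the results was not tested. In bulk RNA, fewer cells of a type and less RNA per cell cannot be told apart. Once scaled, the middle gene of all those measured still differed from control by 0.34 at 6 h and 0.23 at 12 h, and by no more than 0.06 otherwise. Differences of single genes at 6 h and 12 h below include this shift. Those of FAS are also given below relative to that median, and examples for TNFRSF10B and RRM2B follow here. Relative to the median, the 1.09 of the dimmer TNFRSF10B probe at 12 h was 0.86. The -1.80 of RRM2B at 6 h was -2.15 on the same footing.

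Of the genes 6 had more than 1 probe, and the probes of a gene did not always tell the same story, so the probes that lie in coding sequence and bear on those differences are shown here. They are 60 bases each, as in the array's design.

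A_24_P89457, CDKN1A: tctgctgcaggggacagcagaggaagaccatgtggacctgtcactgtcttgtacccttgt
A_23_P309545, MDM2: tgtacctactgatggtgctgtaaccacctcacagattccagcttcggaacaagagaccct
A_23_P90189, BBC3: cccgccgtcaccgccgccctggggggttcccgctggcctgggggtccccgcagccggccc
A_24_P305312, BBC3: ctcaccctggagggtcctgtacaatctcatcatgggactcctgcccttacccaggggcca
A_23_P346311, BAX: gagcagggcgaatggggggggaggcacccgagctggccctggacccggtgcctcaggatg

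The files place the CDKN1A probe at chr6:36760156-36760215 on the plus strand, 2528 bases before the gene's other probe, and the MDM2 probe at chr12:67489279-67489338 on the plus strand, 30810 bases before the other MDM2 probe. The BBC3 probes lie on the minus strand at chr19:52423274-52423333 and chr19:52416927-52416986, and the BAX probe on the plus strand at chr19:54150770-54150829. The files do not name the genome build. None of the 18 probe positions fell inside its gene in GRCh38.p14, so these positions are not on that build. GC content was 55% for the CDKN1A probe, 50% for the MDM2 probe, 85% and 60% for the BBC3 probes and 73.3% for the BAX probe, against 28.3% for the other MDM2 probe. A probe's signal depends on its own sequence, so levels are compared only within a probe.

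**Figure D1:**
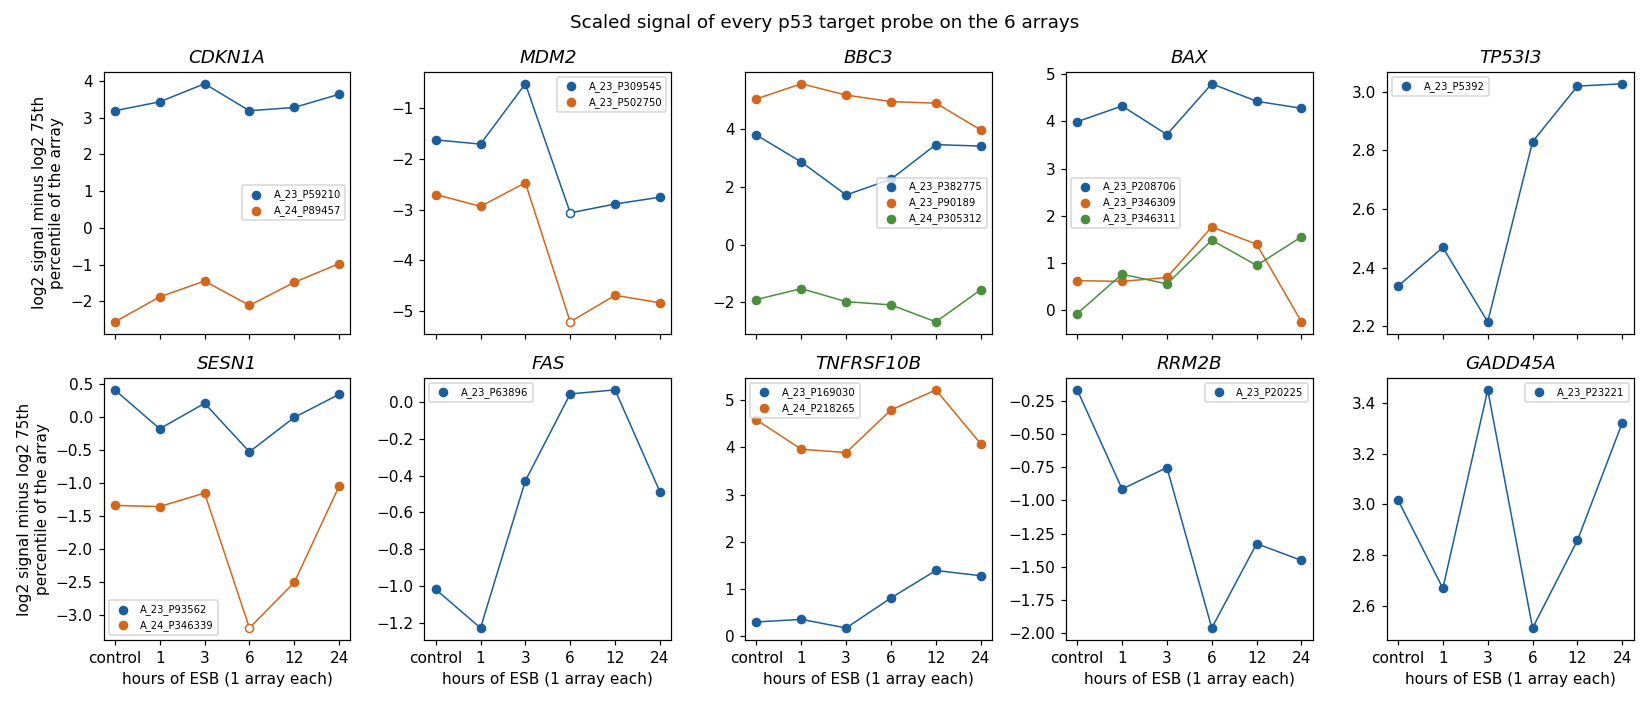
Log2 signal minus the log2 75th percentile of the array (vertical axis) for each of the 18 probes of the 10 p53 targets, on the control array and at 1, 3, 6, 12 and 24 h of ESB (horizontal axis, 1 array each); colours are probes of 1 gene and open symbols are values not well above background. MDM2 is low at 12 h and 24 h by both probes, RRM2B is below its control level at every time, and FAS is highest at 6 h and 12 h.

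As a group the targets moved in both directions. By 1 probe a gene, that with the highest mean, the median difference of the targets was -0.15, 0.005, 0.001, -0.03 and 0.11 in time order, beside medians of -0.06, -0.04, 0.34, 0.23 and 0.02 over all measured genes. In time order 4, 5, 5, 5 and 5 of the targets were above control, beside 44.4%, 46.6%, 64.6%, 62.3% and 51.6% of all genes. The 5 at 6 h include CDKN1A and TNFRSF10B, both below 0 in all 6 scaling alternatives, and the 5 at 12 h include CDKN1A, below 0 in 5 of 6. At 1 h 0 of 10 were 2-fold or more apart, where 2.23% of all genes were higher by that much and 0.663% lower. At 3 h 1 target, MDM2, was higher and 0 were lower, beside 3.24% and 2.96% of all genes. At 6 h FAS was higher and RRM2B lower among 9 measured targets, beside 22.9% and 10% of all genes. At 12 h FAS was higher, and MDM2 and RRM2B were lower, beside 13.1% and 7.81%. The background at these times moved with the scaling: with the median of all genes set to 0 it was 12.6% higher and 16% lower at 6 h and 6.91% and 11.6% at 12 h, and FAS then lay below 2-fold at both. At 24 h 0 targets were higher, beside 7.29% of genes, and MDM2, BBC3 and RRM2B were lower, beside 9.28%. With 10 members, counts of 0 to 3 do not set the group apart from all genes.

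**Figure D2:**
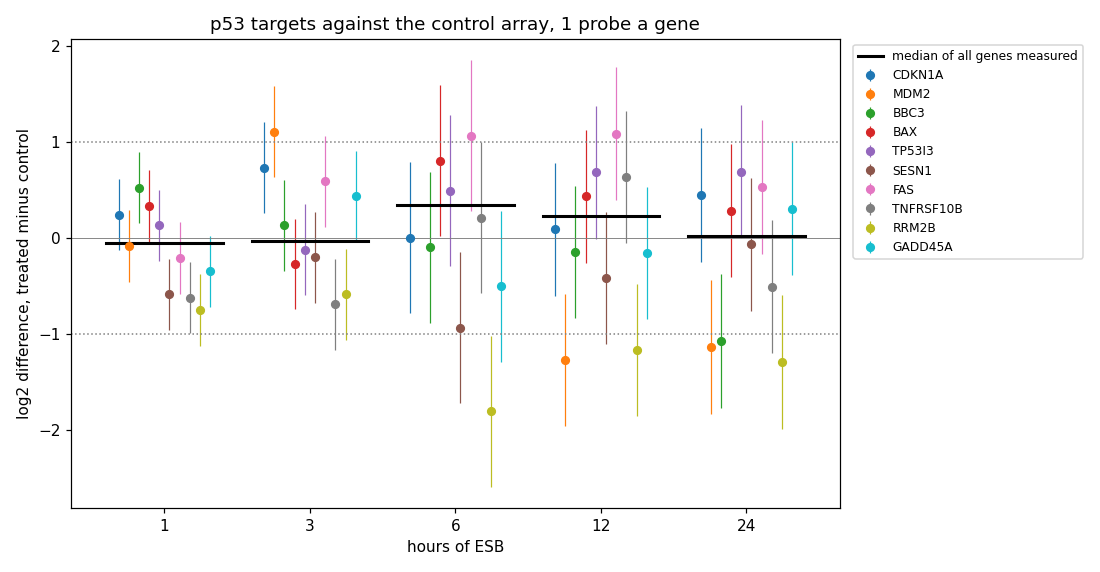
Log2 difference from the control array (vertical axis) of the 10 p53 targets at 1, 3, 6, 12 and 24 h of ESB (horizontal axis), 1 probe a gene; bars are the error SD, dotted lines mark 2-fold and black lines the median of all measured genes. The targets lie on both sides of 0 at each time, and MDM2 moves from 1.11 at 3 h to -1.27 at 12 h; its 6 h value, not well above background, is left out.

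MDM2, the negative regulator of p53, had the widest course of the group. By its coding probe the level was -1.62 on the control array and -1.71, -0.51, -2.89 and -2.76 after 1, 3, 12 and 24 h. It was thus highest at 3 h, by 1.11 ± 0.47 or 2.16-fold, and lower at 12 h by -1.27 ± 0.69 and at 24 h by -1.13 ± 0.70. By its other probe, near the end of the transcript and averaged over up to 10 spots, the level was -2.70 on the control array and -2.94, -2.47, -4.70 and -4.84 after 1, 3, 12 and 24 h. This probe was only 0.23 higher at 3 h, and lower by -1.99 at 12 h and -2.14 at 24 h, which is 3.98-fold and 4.41-fold. Both probes therefore put the highest level at 3 h and the levels at 12 h and 24 h below control. At 6 h neither probe was well above background. The coding probe's own signal, 16.6 units, exceeded the lowest signal among probes above background on that array, 13.9 units. Its level, 2.72-fold lower than control, is therefore a plain estimate and not a bound. By the other probe MDM2 was at least 1.54-fold lower, a bound that sets the control level against that lowest signal. Neither 6 h value was put through the scaling alternatives. The lower level at 12 h did not hold with normexp background correction, which adds an offset to dim signals: the coding probe was then at 0.14 and the other at 0.52. At 24 h, on a bright array, both probes were below control in all 6 scaling alternatives, from -1.22 to -1.0 and from -2.16 to -1.34.

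CDKN1A encodes p21, the inhibitor of cyclin-dependent kinases through which p53 halts the cell cycle. Its 10-spot probe read 3.18 on the control array and 3.43, 3.92, 3.18, 3.27 and 3.63 after 1, 3, 6, 12 and 24 h. The control level was the lowest of the 6 and the 3 h level the highest, but at 6 h the difference was 0.001 and below 0 in all 6 scaling alternatives, and at 12 h it was 0.09 and below 0 in 5 of 6, down to -0.34. The differences were 0.24 ± 0.37, 0.73 ± 0.47 and 0.45 ± 0.70 after 1, 3 and 24 h, so only that at 3 h, 1.66-fold, exceeded the error. The coding probe, a dimmer one, read -2.55 on the control array and -1.87, -1.45, -2.11, -1.48 and -0.97 after 1, 3, 6, 12 and 24 h. It too was lowest in control cells, and its differences were 0.68, 1.11, 0.45, 1.07 and 1.58, the last 3.00-fold, above 0 in all scaling alternatives. Thus both CDKN1A probes were higher than control at 1, 3 and 24 h in every scaling, and differed in size at 24 h by 1.13 on the log2 scale, 1.15 times the error of that gap. The differences of the coding probe all subtract the same control value, from 1 spot.

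GADD45A, a stress-induced protein that acts in growth arrest and DNA repair, followed a course with some likeness to CDKN1A. Its level was 3.02 on the control array and 2.67, 3.45, 2.51, 2.86 and 3.32 after 1, 3, 6, 12 and 24 h. The differences of -0.35, 0.43, -0.50, -0.16 and 0.30 were each within the error. Over the 6 arrays its Pearson correlation with CDKN1A was 0.80, the highest among the other targets, which otherwise ran from -0.75 (TNFRSF10B) to 0.38 (SESN1); MDM2 was not ranked because of its dim 6 h value. Of 10382 genes measured on all arrays, those most correlated with CDKN1A were GCNT3 (0.99), KMT5B (0.98) and CREG1 (0.98). These correlations use levels, with each gene by its probe of highest mean, which for CDKN1A is the 10-spot probe. With only 6 arrays, the control among them, such values are a description.

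SESN1 encodes sestrin, which restrains growth signalling through mTORC1 under stress. Its brighter probe read 0.41 on the control array and -0.18, 0.21, -0.53, -0.01 and 0.34 after 1, 3, 6, 12 and 24 h. It was highest in control cells, with differences of -0.59 ± 0.37 at 1 h and -0.94 ± 0.79 at 6 h as the largest. The second probe, 1328 bases away, gave differences of -0.02, 0.19, -1.17 and 0.29 after 1, 3, 12 and 24 h. At 6 h it was not well above background, and its level was 3.62-fold lower, an estimate and not a bound. Both probes were thus lower at 6 h and 12 h, the dimmest arrays, but at 12 h the brighter probe's -0.42 was within the error of 0.69 and the second probe's value was -0.00022 with normexp background. At 24 h both lay close to control, within the error. RRM2B, the p53-inducible subunit of ribonucleotide reductase that supplies nucleotides for repair, was below control at all 5 times by its 1 probe. Its level was -0.16 on the control array and -0.91, -0.75, -1.97, -1.33 and -1.45 after 1, 3, 6, 12 and 24 h. The differences were -0.75 ± 0.37, -0.59 ± 0.47, -1.80 ± 0.79, -1.16 ± 0.69 and -1.29 ± 0.70, each beyond the error, and below 0 in all 6 scaling alternatives, although at 6 h normexp background left -0.14. All 5 subtract the same control value, from 1 spot, so they are not independent of each other. At 24 h RRM2B was 2.45-fold lower, and 5.4% of measured genes lay below it.

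Death receptors on the cell surface are a further arm of the response. FAS, the receptor of Fas ligand, read -1.02 on the control array and -1.23, -0.43, 0.05, 0.07 and -0.49 after 1, 3, 6, 12 and 24 h. From 3 h on every array was above control, by 0.59 ± 0.47, 1.06 ± 0.79, 1.09 ± 0.69 and 0.53 ± 0.70, or 2.09-fold at 6 h and 2.12-fold at 12 h. These 4 differences stayed above 0 in all 6 scaling alternatives. Relative to the median of all genes they were 0.72 at 6 h, within the error of 0.79, and 0.86 at 12 h. Spots of the FAS probe agreed closely, with an SD of 0.06 to 0.13 on the log2 scale over 10 spots. TNFRSF10B encodes DR5, a receptor of the death ligand TRAIL. Its probes, 2432 bases apart, differed from control in time order by 0.06, -0.13, 0.51, 1.09 and 0.98 for the dimmer and by -0.62, -0.69, 0.21, 0.63 and -0.51 for the brighter. Both were highest at 12 h and above control there in every scaling, whereas at 24 h they had opposite signs. The brighter probe's 0.21 at 6 h was below 0 in all 6 scaling alternatives.

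The mitochondrial death genes showed no common course. BAX, whose product permeabilises the outer mitochondrial membrane, read 3.99 on the control array and 4.33, 3.72, 4.80, 4.43 and 4.28 after 1, 3, 6, 12 and 24 h by its 10-spot probe. Its largest difference, 0.80 ± 0.79 at 6 h, became -0.73 with normexp background, and those at 24 h (0.28) and 3 h (-0.27) were within the error. The coding probe shown above read higher than control on all 5 treated arrays, by 0.84, 0.63, 1.56, 1.02 and 1.63, in every scaling. These 5 differences subtract the same control value, from 1 spot, so they are not independent of each other. The remaining BAX probe, only 229 bases from the coding probe, gave 1.14, 0.77 and -0.87 after 6, 12 and 24 h. At 24 h these neighbouring probes were therefore 2.50 apart, 2.54 times the error of such a gap, and no single direction can be given for BAX there.

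BBC3 encodes PUMA, a BH3-only protein that frees BAX to act. The GC-rich coding probe, the brightest, read 5.05 on the control array and 5.58, 5.18, 4.96, 4.90 and 3.98 after 1, 3, 6, 12 and 24 h. It was below control by more than the error only at 24 h (-1.08 ± 0.70), where the other coding probe was at 0.34. The remaining probe, 913 bases further along, read 3.8 on the control array and 2.87, 1.73, 2.27, 3.47 and 3.42 after 1, 3, 6, 12 and 24 h. This probe was lower by -2.07 ± 0.47 at 3 h, 4.21-fold, and by -1.53 ± 0.79 at 6 h, while the coding probes were at 0.13 and -0.07 at 3 h. The gaps of 2.20 and 2.0 between it and the coding probes at 3 h were 3.30 and 3.00 times the error. The GC-rich probe's 3 h value came from a signal of 61800 units, not flagged as saturated. In the scaling alternatives that value ran from 0.14 to 0.79. TP53I3, a quinone oxidoreductase linked to reactive oxygen during p53-dependent death, read 2.34 on the control array and 2.47, 2.21, 2.83, 3.02 and 3.03 after 1, 3, 6, 12 and 24 h. It was highest at 12 h and 24 h, by 0.68 ± 0.69 and 0.69 ± 0.70, values at the edge of the error.

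**Figure D3:**
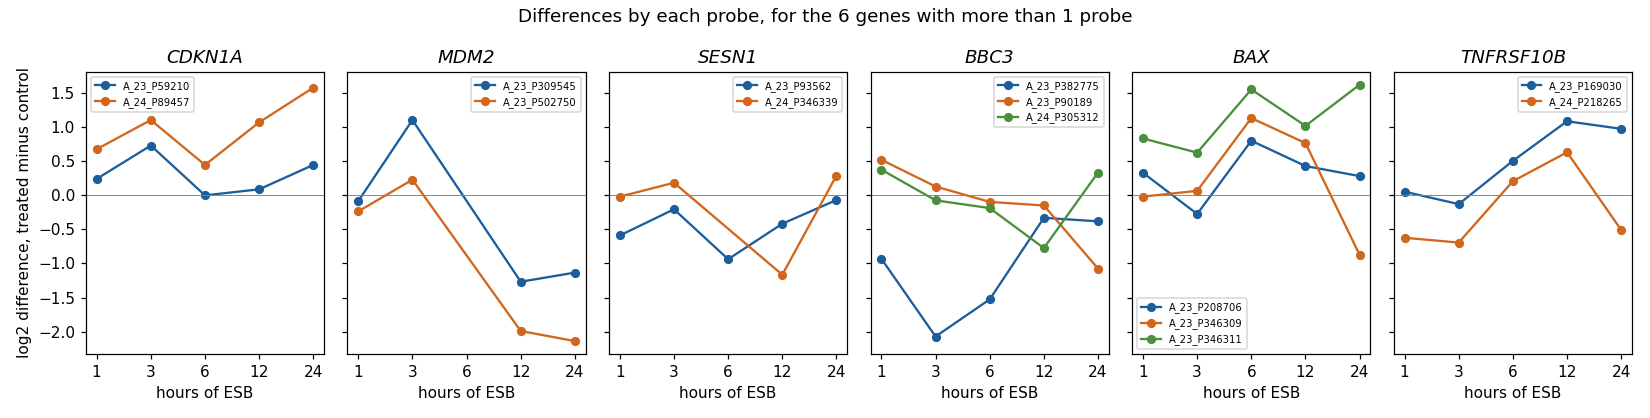
Log2 difference from the control array (vertical axis) at 1, 3, 6, 12 and 24 h of ESB (horizontal axis) by each probe of the 6 targets with more than 1 probe; points not well above background are left out. The 2 CDKN1A probes end 1.13 apart at 24 h, 1 BBC3 probe is at -2.07 at 3 h beside 0.13 and -0.07, and 2 BAX probes lie 2.50 apart at 24 h.

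Over all pairs of probes of these 6 genes and all times at which both were measured, 32 of 48 had the same sign. The median gap was 0.61 and the largest 2.50, and 5 gaps exceeded 2 errors.

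The trend over the whole course was tested by a limma fit of log2 signal against log2(hours + 1) over the 6 arrays, for 28648 probes above background on at least 3 arrays. No target passed. All 18 target probes were tested, and their adjusted p ran from 0.331 to 0.999 (limma, Benjamini-Hochberg over all probes). Over all probes 0 of 28648 passed, 0%, with a smallest adjusted p of 0.183 and 3149 at an unadjusted p under 0.05, 11% of them. Among the targets 5 of 18 probes were at an unadjusted p under 0.05. These were MDM2 by the probe outside the coding sequence (slope -0.57 ± 0.18 SE per unit of log2(hours + 1)), RRM2B (-0.28 ± 0.12), the BAX coding probe (0.30 ± 0.11), the dimmer TNFRSF10B probe (0.26 ± 0.10) and the CDKN1A coding probe (0.27 ± 0.11). The MDM2 fit includes a 6 h signal of 3.73 units that was not well above background, and with normexp background its slope was -0.08 (unadjusted p = 0.751, limma). The fit has 4 residual degrees of freedom, and its residual is scatter about a line. Slopes were above 0 in 10 of the 18 probes, beside 54.0% of all probes. Not all of these signs held under the alternatives. The BBC3 slope of 0.0008, by the probe lowest at 3 h, was below 0 in 10 settings. The 10-spot CDKN1A probe changed sign in 4, and GADD45A and the brighter TNFRSF10B probe in 3 each. Slopes below 0 changed sign for the SESN1 probes (4 and 3 settings), the dimmer BBC3 coding probe (4) and the remaining BAX probe (1). Without the 6 h and 12 h arrays together, 1 target probe passed, that of MDM2 outside the coding sequence (slope -0.47 ± 0.12 SE, adjusted p = 0.0486 by limma), among 2373 of 28648 probes.

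**Figure D4:**
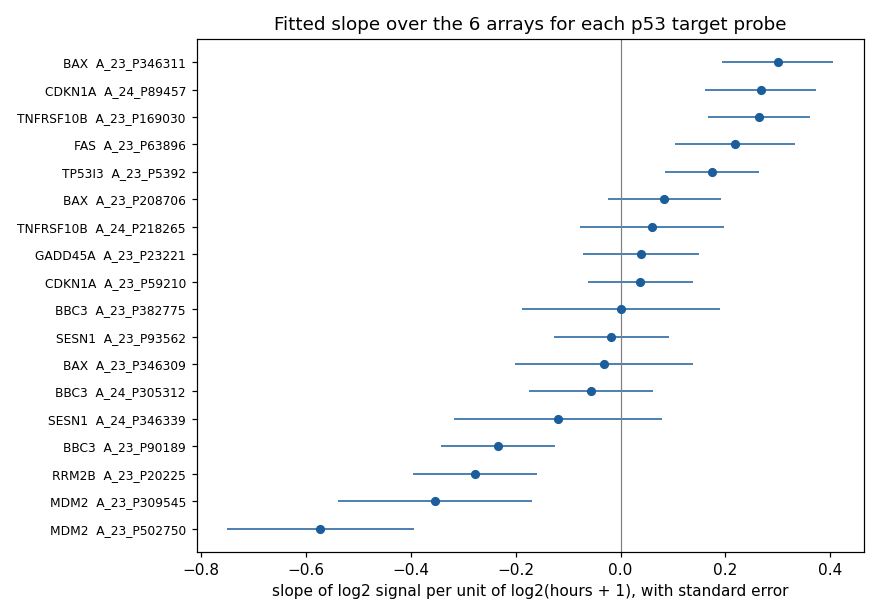
Slope of log2 signal per unit of log2(hours + 1) (horizontal axis) with its standard error (bars) for each of the 18 probes of the p53 targets (vertical axis), fitted with limma over 6 arrays. Slopes run from -0.57 for an MDM2 probe to 0.30 for a BAX probe, and none passed after adjustment over all probes.

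The regulators of p53 were taken from a list of 20, of which 19 were measured at 1, 3 and 24 h. MDM4, the MDM2 relative that blocks p53's activation domain, was at -0.21, 0.07, 0.93, 0.61 and 0.33 over the 5 times. Its other probes were at 0.10, 0.23 and -0.40 after 1, 3 and 24 h, and at 0.26, 0.84, -0.17 and 0.37 after 1, 3, 12 and 24 h, so the probes disagreed in sign at 1, 12 and 24 h. PPM1D, the phosphatase that ends p53 signalling, was at -0.68, -0.17, -0.03, 0.04 and -0.69. Of the kinases and partners, HIPK2, which phosphorylates p53, was at 2.87 after 6 h and 2.47 after 12 h but 0.29 at 24 h. ATR, the replication stress kinase, was at 1.35, 1.15 and 0.56 at those times, and TP53BP1, a DNA break factor, at 1.30, 1.52 and 1.09. RCHY1, a ubiquitin ligase of p53, was at 1.09 at 12 h and 0.40 at 24 h. In time order 1, 0, 3, 4 and 2 regulators were at least 2-fold higher and 0, 0, 0, 1 and 2 lower, with 15 measured at 6 h and 18 at 12 h. Of all genes 2.23%, 3.24%, 22.9%, 13.1% and 7.29% were higher and 0.663%, 2.96%, 10%, 7.81% and 9.28% lower. The 2 higher at 24 h were ATM and TP53BP1, and the list median there was 0.29 beside 0.02 for all genes. No regulator passed the trend test (smallest adjusted p = 0.337, limma), and at an unadjusted p under 0.05 there were 2 slopes above 0 and 1 below.

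Further targets of arrest and repair numbered 20, with 15 to 18 measured. Their median was -0.10, -0.02, 0.70, 0.45 and -0.22 in time order, and 0, 0, 6, 4 and 2 of them were at least 2-fold higher over the 5 times and 0, 1, 2, 4 and 2 lower. Of all genes 2.23%, 3.24%, 22.9%, 13.1% and 7.29% were higher and 0.663%, 2.96%, 10%, 7.81% and 9.28% lower, and these shares stand beside the counts of each list below as well. POLH, a polymerase that copies past lesions, was at 1.64 after 6 h and 1.21 after 12 h but -0.46 at 24 h (its other probe was measured at 1 h and 3 h alone), and FDXR, ferredoxin reductase, at 1.69, 1.26 and -0.14. CCNG1, cyclin G, was at -2.16, -1.46 and -0.22. In each of these 3 genes the 6 h and 12 h arrays, the dimmest, lay together and apart from 24 h. No member passed the trend test (smallest adjusted p = 0.331, limma), and ZMAT3 and TP53INP1 had slopes below 0 at an unadjusted p under 0.05.

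Of 14 further death targets, 13 were measured except at 6 h, where 7 were. Their median was -0.06, -0.29, 0.56, 0.21 and -0.29 in time order. BID, which links death receptors to mitochondria, was at 1.71, 1.62 and 0.06 after 6, 12 and 24 h, and by a further probe at 1.27, 1.24 and 0.08. AEN, an apoptosis-linked nuclease, was the member at least 2-fold higher at 3 h (1.32), and lay at 0.90 at 1 h and -1.08 at 6 h. SPATA18, a mitochondrial quality gene, was at -1.84 after 6 h and -1.33 after 24 h, but its other probes were at 0.35, 0.41, -0.34 and 1.07, and at -0.04, -0.07, -0.11 and 0.23, after 1, 3, 12 and 24 h. PIDD1, a death domain protein, was at 1.05 after 6 h and -0.20 after 24 h. At an unadjusted p under 0.05 SPATA18 had a slope below 0, and 0 members passed (smallest adjusted p = 0.392, limma).

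Relatives of the targets did not all move with them. TNFRSF10A, the other TRAIL death receptor, was at -2.25 after 12 h and -1.25 after 24 h. The TNFRSF10B probes lay at 1.09 and 0.63 and then at 0.98 and -0.51, and the difference between these genes was not tested. The TNFRSF10A signal at 12 h, 18 units, was near the lowest signal above background on that array, 11.4 units. At 24 h its signal was 141 units, and at 6 h it was not well above background. RRM2, the S-phase subunit of ribonucleotide reductase, was at 0.03 after 1 h and 3 h and at -2.16, -2.04 and -2.0 later, and its other probe at 0.86, 1.04, -2.06, -1.50 and -1.48 in time order. That probe was thus over 2-fold higher at 3 h, where the first did not differ from control by more than the error. CDKN1B, the p27 inhibitor, was at -0.75, -1.07, -1.92, -0.93 and -1.20, and by a further probe at 0.08, -0.94, -1.64 and -0.93 after 1, 3, 12 and 24 h. SESN2 was at 0.35, -0.50, -0.50, 0.40 and 0.86, and GADD45B at -0.72, -0.09, 0.06, 0.19 and -0.29, but by its other probe at -0.29, 0.42, 0.78, 0.02 and 0.54, opposite in sign at 3 h and 24 h. BOK, a BAX-like effector, was at 0.72 after 6 h and 0.97 after 24 h, with its other probe at 0.25, -0.29, 0.90, 0.81 and 0.06 in time order. SESN3 was not well above background on any array, and GADD45G not on the control array. By 1 probe a gene, 0 of the 15 relatives were at least 2-fold higher at any time among 8 to 10 measured, and 0, 1, 2, 2 and 3 were lower, beside 0.663%, 2.96%, 10%, 7.81% and 9.28% of all genes. No relative passed the trend test, and RRM2 had a slope below 0 at an unadjusted p under 0.05 (smallest adjusted p = 0.295, limma).

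Genes that p21 lowers through the DREAM repressor complex, mostly of mitosis, were measured at all times, 14 of 14. Their median was 0.20, -0.02, 0.21, 0.29 and -0.13 in time order, and 1 member, CDC25C at 6 h (-1.56), was at least 2-fold lower at any time, beside 10% of all genes at 6 h, 7.81% at 12 h and 9.28% at 24 h. AURKB, a kinase of chromosome segregation, was higher at every time, by 1.28, 1.79, 2.31, 2.13 and 2.22. These differences all subtract the same control signal, 298 units, so they are not independent of each other. BIRC5, survivin, was at 1.71 after 6 h and -0.16 after 24 h, and CCNB1, mitotic cyclin B, at 1.00 at 12 h and 0.40 at 24 h. AURKB had a slope above 0 at an unadjusted p under 0.05, and 0 members passed (smallest adjusted p = 0.295, limma).

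Promoter windows from RefSeq (GRCh38.p14), of 300 bases from 250 before to 50 after a transcript start, were matched for 7 of the 10 targets, 14 windows in all. The p53 half-site consensus, which reads the same on both strands, was found in 2 of the 14, beside 6.63% of 35116 windows. A pair of half-sites within 13 bases of each other was found in 0, beside 0.0285%. Sequence that departs from the consensus was not counted, so a count of 0 does not show that a paired site is absent. The matched windows belong to alternative starts of FAS and SESN1 and are shown because they hold the match. Capitals mark the half-site.

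FAS, chr10:88991181-88991480, plus strand: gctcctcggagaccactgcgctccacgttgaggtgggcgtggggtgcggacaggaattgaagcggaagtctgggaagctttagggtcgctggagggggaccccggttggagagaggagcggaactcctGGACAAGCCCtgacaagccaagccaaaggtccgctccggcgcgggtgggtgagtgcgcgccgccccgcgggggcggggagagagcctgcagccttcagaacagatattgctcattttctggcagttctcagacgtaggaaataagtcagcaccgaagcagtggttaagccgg
SESN1, chr6:109008939-109009238, minus strand: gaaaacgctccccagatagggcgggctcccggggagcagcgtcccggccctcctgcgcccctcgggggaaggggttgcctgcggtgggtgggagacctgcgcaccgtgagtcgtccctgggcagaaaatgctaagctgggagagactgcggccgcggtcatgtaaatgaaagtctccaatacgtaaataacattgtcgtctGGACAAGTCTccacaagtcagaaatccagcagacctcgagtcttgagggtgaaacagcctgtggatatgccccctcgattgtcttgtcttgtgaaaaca

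The match begins at base 129 of the FAS window and at base 202 of the SESN1 window. It describes the letters only, and no binding was measured.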

How the data were processed

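Gene expression was measured in HepG2 cells on 6 arrays, 1 a group. RNA was amplified and labelled with a kit named in the labels' protocols. Per the file headers, the scanner files give each spot's intensity, raw and background-corrected (processed signal). The deposited intensity was not normalized between arrays. The authors' value table held linear intensity of 35646 probes, equal within 1 unit to spot median minus background median for at least 99.86% of its single-spot probes on each array. Per the file headers, flags of 0 or 1 mark spots above background, saturated or outlying, which have no other unit.

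Control spots (1639 an array) and spots marked as outliers were left out, log2 processed signal was averaged over the spots of a probe, and the 75th percentile of each array was subtracted, leaving 40895 of 41000 probes. A probe was above background where most of its spots were, and measured where it was above background and unsaturated on both arrays. Targets were matched by the files' gene names, other genes through RefSeq accessions, symbols or synonyms (26787 probes with 1 symbol, 14168 unmatched, 45 with several). Of several probes the one of highest mean stood for the gene. Fits used limma 3.58.1 in R 4.3.3 with a threshold of 0.05, and were tested on simulated data. Named genes beyond the targets were up to 4 of each list with the largest difference among genes measured on all arrays, a fixed set of 8, and the 3 most like CDKN1A. The targets and lists were chosen with earlier results of these data known. Some genes that this rule names are not reported here. Alternatives were quantile and cyclic loess normalization, normexp background with an offset of 50, the deposited table, other centrings, filters, probe choices and time scales, and left-out arrays. The number of arrays limits the precision.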

Additional observations from a re-analysis of the deposited data

How the results depend on the processing

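Of 122 values that answer a comparison under an alternative, 99 stayed within their limits and 23 moved. With normexp background the median of the targets at 6 h was -0.77, with cyclic loess normalization -0.60, with quantile normalization -0.45 and with the median of all genes set to 0 -0.34, beside 0.001. At 12 h it was -0.40 with cyclic loess and -0.34 with quantile normalization, beside -0.03. The number of targets at least 2-fold higher at 3 h, 1, became 0 with normexp, with the deposited value table and with the mean of all probes of a gene. At 6 h the number higher, 1, became 0 with normexp, with the percentile of probes above background on all arrays and with the median of all genes set to 0, and 2 with the mean of probes; the number lower, 1, became 4 with normexp and 2 with cyclic loess, with that percentile and with the median set to 0. At 12 h the number higher, 1, became 0 with normexp, that percentile and the median set to 0, and the number lower, 2, became 0 with normexp. At 24 h the number higher, 0, became 1 with the mean of probes. MDM2 at 12 h reversed to 0.14 with normexp. Of 100 list values under alternatives, 26 moved. The cause of these changes was not tested.

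The split of all genes at 2-fold at 6 h, 22.9% higher and 10% lower, became 14.6% and 11.6% with quantile normalization, 16.2% and 12.1% with cyclic loess, 13.9% and 14.9% with the percentile of probes above background, and 20.8% and 16.7% with normexp. At 12 h, 13.1% and 7.81% became 8.43% and 8.86%, 8.54% and 8.89%, 7.72% and 10.9%, and 19.7% and 4.5%.

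The number of target probes that passed the trend test was 0 in each fit with 1 array left out (lowest 0, highest 0), and 1 without the 6 h and 12 h arrays together, where 2373 of all probes passed beside 0. Probes at an unadjusted p under 0.05 numbered 771 with normexp to 5368 without the 24 h array, beside 3149. No paired analysis was possible because each group had 1 array and the labels give no replicate numbers. Slide as a block was not run, since the files name no slides. Signal over background limits the 6 h array most, where 49.5% of probes were well above it.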
